A study of Arabidopsis thaliana with 20 samples.

Results

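The 5 polyubiquitin genes UBQ10 (AT4G05320), UBQ3 (AT5G03240), UBQ14 (AT4G02890), UBQ11 (AT4G05050) and UBQ4 (AT5G20620) of Arabidopsis thaliana were chosen by locus, out of 27444 nuclear protein-coding genes. The rule used no measured value, though earlier results of these data were known at the time. Every DNase I peak that touched one of these genes or the 1000 bp upstream of its annotated start was collected from 7 peak lists. A polyubiquitin gene encodes ubiquitin units joined head to tail, which deubiquitinating enzymes cut into single ubiquitin molecules. Ubiquitin is attached to other proteins by activating, conjugating and ligating enzymes, and chains of it mark proteins for the proteasome. The demand for free ubiquitin is known to rise in stressed cells, and the UBQ10 promoter is widely used in plants to drive genes in nearly all tissues.

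DNase I-seq marks stretches of DNA that the nuclease can reach, and it was done on nuclei of 7-day-old Col-0 seedlings in 7 conditions with 1 library each. Heat shock seedlings, grown in 16 h of light at 22 °C and 8 h of dark at 20 °C (LD), were held for 30 min at 45 °C. Spray control seedlings were LD-grown, sprayed lightly with 0.5% EtOH and kept for 3 h, and LD control seedlings were LD-grown without treatment. The other 4 groups were grown in the dark and were taken in the dark or after 30 min or 3 h of light or after 24 h in LD. All groups carry the INTACT transgenes UBQ10:NTF::ACT2:birA, in which the UBQ10 promoter drives a nuclear tag and the ACT2 promoter drives the biotin ligase that labels it. The captured nuclei are therefore those of cells that use both promoters, and cuts in the transgene copy of UBQ10 promoter sequence cannot be told apart from cuts at the gene itself. The 6 RNA-seq samples are not analysed here.

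The lists held 32755 nuclear peaks after heat shock, 33780 in the spray control and 34637 in the LD control. They held 28917 in the dark, 28824 after 30 min, 31336 after 3 h and 26712 after 24 h of light. Nearly all peaks were 150 bp wide, and read depth per library is unknown. The authors' signal per peak has a median that ran from 148 in the dark to 1036 in the spray control, so a peak is described by its percentile, the share of its own list's peaks with a signal at or below its own. Without replicates no spread between libraries can be given and no test was made. Of 3 green tissue marker genes, 3 had a peak in every list other than those of the dark and 30 min of light, where 2 had one. Of 3 root marker genes, 3 had a peak after 3 h of light and 2 in each of the other 6 lists.

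The 150 bases before the annotated start are printed for 4 of the genes, because the strongest peaks lie on or next to them and because they show how the promoters resemble each other. The sequence is that of RefSeq TAIR10.1 on the strand of the gene, 5′ to 3′. UBQ10 is at chr4:2717827-2717976 on the plus strand. On the minus strand, UBQ3 is at chr5:773516-773665, UBQ14 at chr4:1280167-1280316 and UBQ11 at chr4:2589438-2589587. Capitals mark stretches of at least 10 bases that 2 of these genes share letter by letter.
UBQ10 upstream: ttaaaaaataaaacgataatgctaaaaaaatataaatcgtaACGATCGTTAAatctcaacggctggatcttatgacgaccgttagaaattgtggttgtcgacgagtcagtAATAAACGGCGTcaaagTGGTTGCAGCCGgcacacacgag
UBQ14 upstream: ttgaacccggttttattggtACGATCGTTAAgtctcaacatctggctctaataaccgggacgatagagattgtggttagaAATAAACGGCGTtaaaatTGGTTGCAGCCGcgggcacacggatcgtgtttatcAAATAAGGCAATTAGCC
UBQ11 upstream: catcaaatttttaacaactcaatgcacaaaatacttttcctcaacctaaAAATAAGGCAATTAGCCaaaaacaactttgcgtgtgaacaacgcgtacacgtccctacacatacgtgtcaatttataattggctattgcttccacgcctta
UBQ3 upstream: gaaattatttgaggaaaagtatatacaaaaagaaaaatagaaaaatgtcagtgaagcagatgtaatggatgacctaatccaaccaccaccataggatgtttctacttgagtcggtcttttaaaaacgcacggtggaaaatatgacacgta

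UBQ10 and UBQ14 shared 3 such stretches, of 11, 12 and 12 bases, in the same order toward the start. They began at -109, -40 and -23 in UBQ10 and at -130, -70 and -52 in UBQ14, counted from the annotated start. UBQ14 and UBQ11 shared a stretch of 17 bases, which ended 1 base before the start of UBQ14 and began at -101 in UBQ11. UBQ3 shared none with UBQ10, UBQ14 or UBQ11. The bases upstream of UBQ4 are not printed, since its upstream window covers almost the whole of GER3, a germin-like protein gene on the same strand that ends 19 bp before UBQ4 starts.

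A second strong peak of UBQ10 lay farther upstream, at chr4:2717421-2717570, and its sequence is shown because all 7 lists held it at the same 150 bases. Capitals mark a match to the I-box (GATAA, here on the opposite strand).
UBQ10 distal peak: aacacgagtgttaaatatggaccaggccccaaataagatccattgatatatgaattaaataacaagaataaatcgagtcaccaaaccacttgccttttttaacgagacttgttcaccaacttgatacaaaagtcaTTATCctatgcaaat

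The proteins the genes encode are repeats of 1 sequence of residues, while their DNA differs. The 5 genes hold 22 ubiquitin units of 228 bp, 6 in UBQ10, 5 in UBQ4, 4 in UBQ3, 4 in UBQ14 and 3 in UBQ11. All 22 units have a different DNA sequence and all 22 encode the same 76 residues. DNA identity between units of different genes ran from 76.8% to 97.4%, with a median of 81.1%, and was highest between unit 1 of UBQ14 and unit 1 of UBQ10. Unit 1 of each gene is printed from RefSeq TAIR10.1, with capitals at the bases that differ from unit 1 of UBQ10.
UBQ10 unit 1: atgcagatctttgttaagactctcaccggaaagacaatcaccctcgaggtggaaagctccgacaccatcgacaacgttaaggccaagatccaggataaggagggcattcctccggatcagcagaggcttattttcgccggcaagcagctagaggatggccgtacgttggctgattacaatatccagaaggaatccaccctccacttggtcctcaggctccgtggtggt
UBQ14 unit 1: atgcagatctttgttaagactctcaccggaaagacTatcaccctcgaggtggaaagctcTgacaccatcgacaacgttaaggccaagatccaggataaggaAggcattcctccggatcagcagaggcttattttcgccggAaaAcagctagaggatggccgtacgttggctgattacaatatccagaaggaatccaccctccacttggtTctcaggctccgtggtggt
UBQ11 unit 1: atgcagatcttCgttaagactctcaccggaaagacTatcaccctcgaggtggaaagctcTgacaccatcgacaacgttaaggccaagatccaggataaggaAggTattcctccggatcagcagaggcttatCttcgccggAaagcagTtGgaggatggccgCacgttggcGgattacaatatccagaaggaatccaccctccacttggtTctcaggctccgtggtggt
UBQ4 unit 1: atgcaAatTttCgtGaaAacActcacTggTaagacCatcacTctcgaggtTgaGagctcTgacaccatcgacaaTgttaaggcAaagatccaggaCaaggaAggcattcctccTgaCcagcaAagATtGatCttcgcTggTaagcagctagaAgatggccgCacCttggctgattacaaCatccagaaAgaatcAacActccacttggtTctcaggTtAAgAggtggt
UBQ3 unit 1: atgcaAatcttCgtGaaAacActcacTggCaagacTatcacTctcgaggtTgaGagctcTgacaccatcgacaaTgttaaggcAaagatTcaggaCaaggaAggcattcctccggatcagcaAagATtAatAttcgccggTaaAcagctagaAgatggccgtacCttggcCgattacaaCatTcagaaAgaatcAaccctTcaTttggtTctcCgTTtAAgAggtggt

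These units are at chr4:2718559-2718786 for UBQ10, chr4:1279437-1279664 for UBQ14, chr4:2588733-2588960 for UBQ11, chr5:6974236-6974463 for UBQ4 and chr5:772669-772896 for UBQ3. Unit 1 of UBQ14 differed from that of UBQ10 at 6 bases, all 6 at the third codon position. UBQ11 differed at 12 bases, UBQ4 at 38 and UBQ3 at 40, of which 11, 35 and 36 were at the third codon position. No residue differed. The pair with the most alike unit 1, UBQ10 and UBQ14, was also the pair that shared 3 stretches upstream.

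Repeated sequence bears on what a peak list can show, because a short read from a repeat has no single place in the genome. In the coding stretch, the share of 36-base sequences found once in the genome was 66.6% in UBQ11, 73.2% in UBQ10, 74.6% in UBQ14, 90.6% in UBQ3 and 92.9% in UBQ4. Outside the coding stretch the share was 95.8% or more in every part of the 5 genes, other than the 1000 bp upstream of UBQ14, where it was 70.2%. Over whole gene spans it was 83.2% in UBQ10, 84.2% in UBQ11, 85.8% in UBQ14, 95.4% in UBQ3 and 95.6% in UBQ4, against a median of 100% over 27435 genes. Of those genes, 5.05% had a lower share than UBQ10 and 10.3% a lower share than UBQ4. Read length and the handling of repeated reads are not stated in the labels. The part of repeats in the number of coding peaks was not tested.

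**Figure D1:**
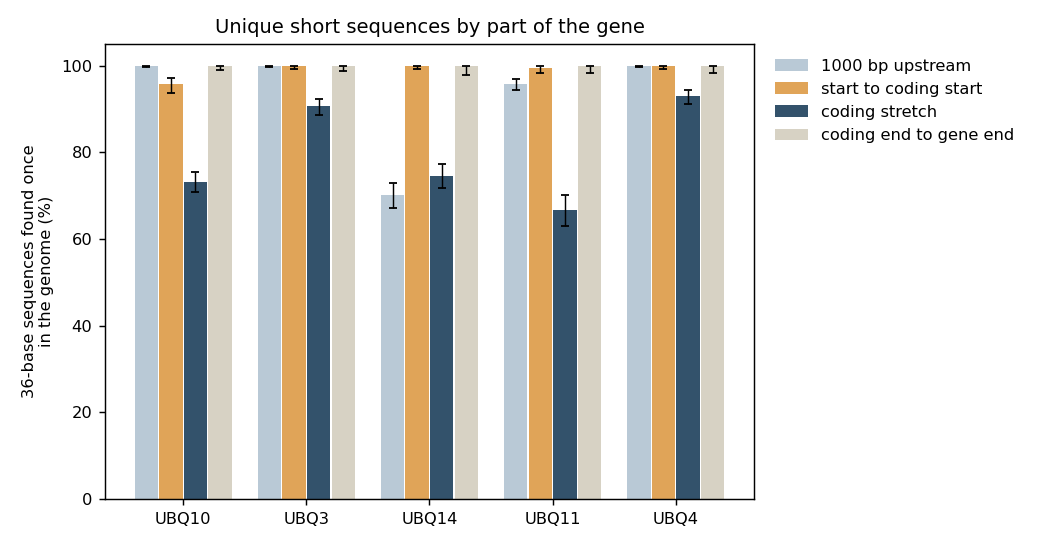
The bars give the percent of 36-base sequences that occur once in the genome, for 4 parts of each polyubiquitin gene, with Wilson 95% intervals over the sequences as lines. The sequences overlap and are all those of the reference, so the lines measure no sampling error. The coding stretches of UBQ10 (73.2%), UBQ14 (74.6%) and UBQ11 (66.6%) and the upstream window of UBQ14 (70.2%) stand lowest.

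All 5 genes had a peak within 250 bp of the start in at least 6 of the 7 lists, and 4 of them in all 7, against 10272 of 27444 genes (37.4%) that had one in all 7. The exception was UBQ4, which had none in the dark. The strongest peaks of the genes kept the same order by signal in each of the 7 lists, with UBQ10 first, then UBQ3, UBQ14, UBQ11 and UBQ4. Peaks of 1 list share a library, and this order is a description of 7 libraries. The line carries the UBQ10 promoter in its transgene, and the part of that in the first place of UBQ10 was not tested. In nuclei pooled from whole seedlings, a weaker peak in all cells and a peak in fewer cells cannot be told apart.

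**Figure D2:**
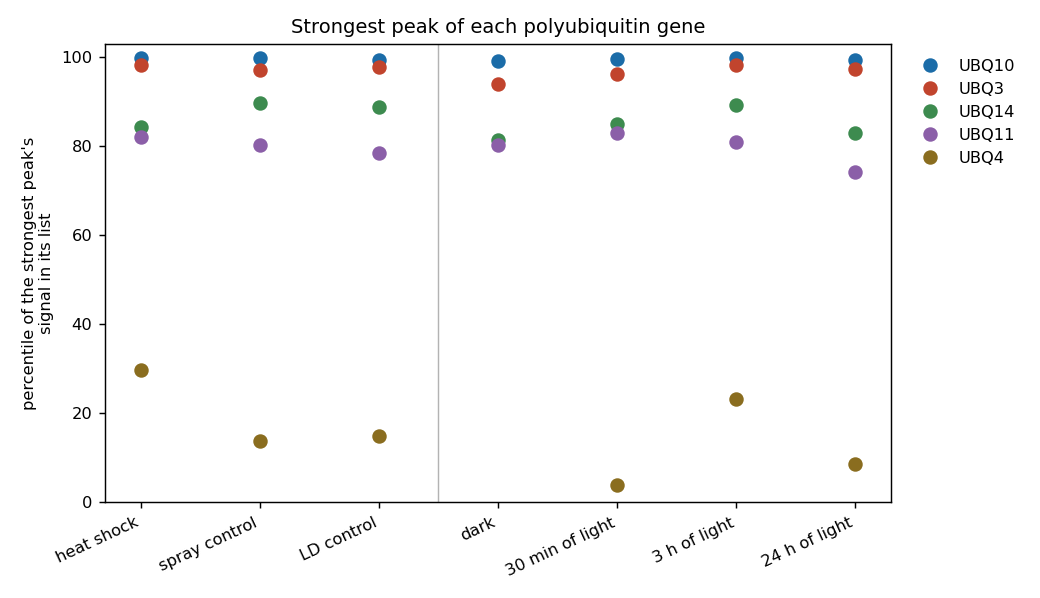
Each point is the strongest peak over a polyubiquitin gene and its 1000 bp upstream in 1 list, and the vertical axis gives its percentile in that list. UBQ10 lies between 99.2 and 99.9, UBQ3 between 93.9 and 98.2, UBQ14 between 81.5 and 89.8, UBQ11 between 74.3 and 83 and UBQ4 between 3.84 and 29.7, with no UBQ4 peak in the dark.

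UBQ10 (chr4:2717977-2720308, plus strand) had peaks among the strongest of the genome in every condition. Its distal peak, centred 482 bp before the start, ranked 121 of 32755 after heat shock, 38 of 33780 in the spray control and 317 of 34637 in the LD control. In the other series it ranked 377 of 28917 in the dark, 509 of 28824 after 30 min, 88 of 31336 after 3 h and 206 of 26712 after 24 h of light. All of these ranks put it at percentile 98.2 or higher. Nuclei were captured by a tag that the UBQ10 promoter drives, and cuts in the transgene copy cannot be told apart from those at the gene. The part of both in the ranks of UBQ10 was not tested.

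At the start of UBQ10 a stretch of 450 bp held 9 peaks over the 7 lists. Heat shock and LD control each had 1 peak centred at -42, at percentiles 99.9 and 99.5, and the spray control had 1 at -102, at percentile 99.9. In the dark there were 2 peaks, at -222 (percentile 98.5) and at 78 (percentile 99.2), and 30 min of light gave 2 peaks at the same places (99.3 and 99.7). At 3 h of light the list held only the peak at -222 (99.8), and at 24 h only that at 78 (99.4). The stretch is joined across lists, since the spray control peak overlaps the place of the peak at -222. In the dark and 30 min lists the 2 peaks did not touch each other. Each peak in the stretch stood at percentile 98.5 or higher in its list, and the reason for the different places was not tested. UBQ10 has 6 distinct annotated transcript starts, the farthest 235 bp inside the outermost one, from which distances are counted here. The peak at 78 is also the peak of this stretch with repeated sequence, with 81.7% of its 36-base sequences found once in the genome, while those at -42, -102 and -222 have 100%. The midpoints of the peak centred nearest to the start ranged over 300 bp at UBQ10, against a median of 40 bp over the 10272 genes with a start peak in all 7 lists. Of those genes, 87.1% stayed within 100 bp.

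UBQ3 (chr5:771660-773515, minus strand) was the gene with the least change in position. Its start peak was centred 20 bp before the start in all 7 lists, read on a grid of 20 bp. Of the 10272 genes, 17.2% kept 1 position in all 7 lists. It stood at percentile 98.2 after heat shock, 97.1 in the spray control and 97.8 in the LD control. It stood at 93.9 in the dark, 96.3 after 30 min, 98.2 after 3 h and 97.3 after 24 h of light, so the dark list gave its lowest place. A further peak, centred at -800, was also in all 7 lists, at percentiles from 60 to 76.4. That peak lies 59 bp from the start of the divergent gene AT5G03250 and so cannot be assigned to UBQ3 alone.

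UBQ14 (chr4:1278530-1280166, minus strand) had its start peak at -49 after heat shock, in the spray control, in the dark and after 30 min and 3 h of light, and at 51 in the LD control and after 24 h of light. The percentile was 84.4 after heat shock, 89.8 in the spray control and 88.8 in the LD control. It was 81.5 in the dark, 85.1 after 30 min, 89.3 after 3 h and 82.9 after 24 h of light. At -49 it covers the stretch shared with UBQ11 and the 2 stretches nearest the start that are shared with UBQ10.

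UBQ11 (chr4:2588004-2589437, minus strand) had its start peak at 2, other than after heat shock, where it was at -18. Its percentile was 82 after heat shock, 80.4 in the spray control and 78.6 in the LD control. It was 80.3 in the dark, 83 after 30 min, 81 after 3 h and 74.3 after 24 h of light. UBQ14 and UBQ11 were close in the dark (81.5 and 80.3) and farthest apart in the LD control (88.8 and 78.6).

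UBQ4 (chr5:6973053-6975009, minus strand) had the weakest start peak of the 5. It was centred at -6 after heat shock, at 14 in the spray control and after 30 min of light, and at 54 in the LD control and after 3 h and 24 h of light. Its percentile was 29.7 after heat shock, 13.8 in the spray control and 15 in the LD control. It was 3.84 after 30 min, 23.3 after 3 h and 8.57 after 24 h of light, and the dark list held no peak there. In every list that held it, the UBQ4 start peak also touched the end of the upstream gene GER3. A weak peak can fall on either side of the threshold of a list, so the missing dark peak does not show that the DNA was closed.

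**Figure D3:**
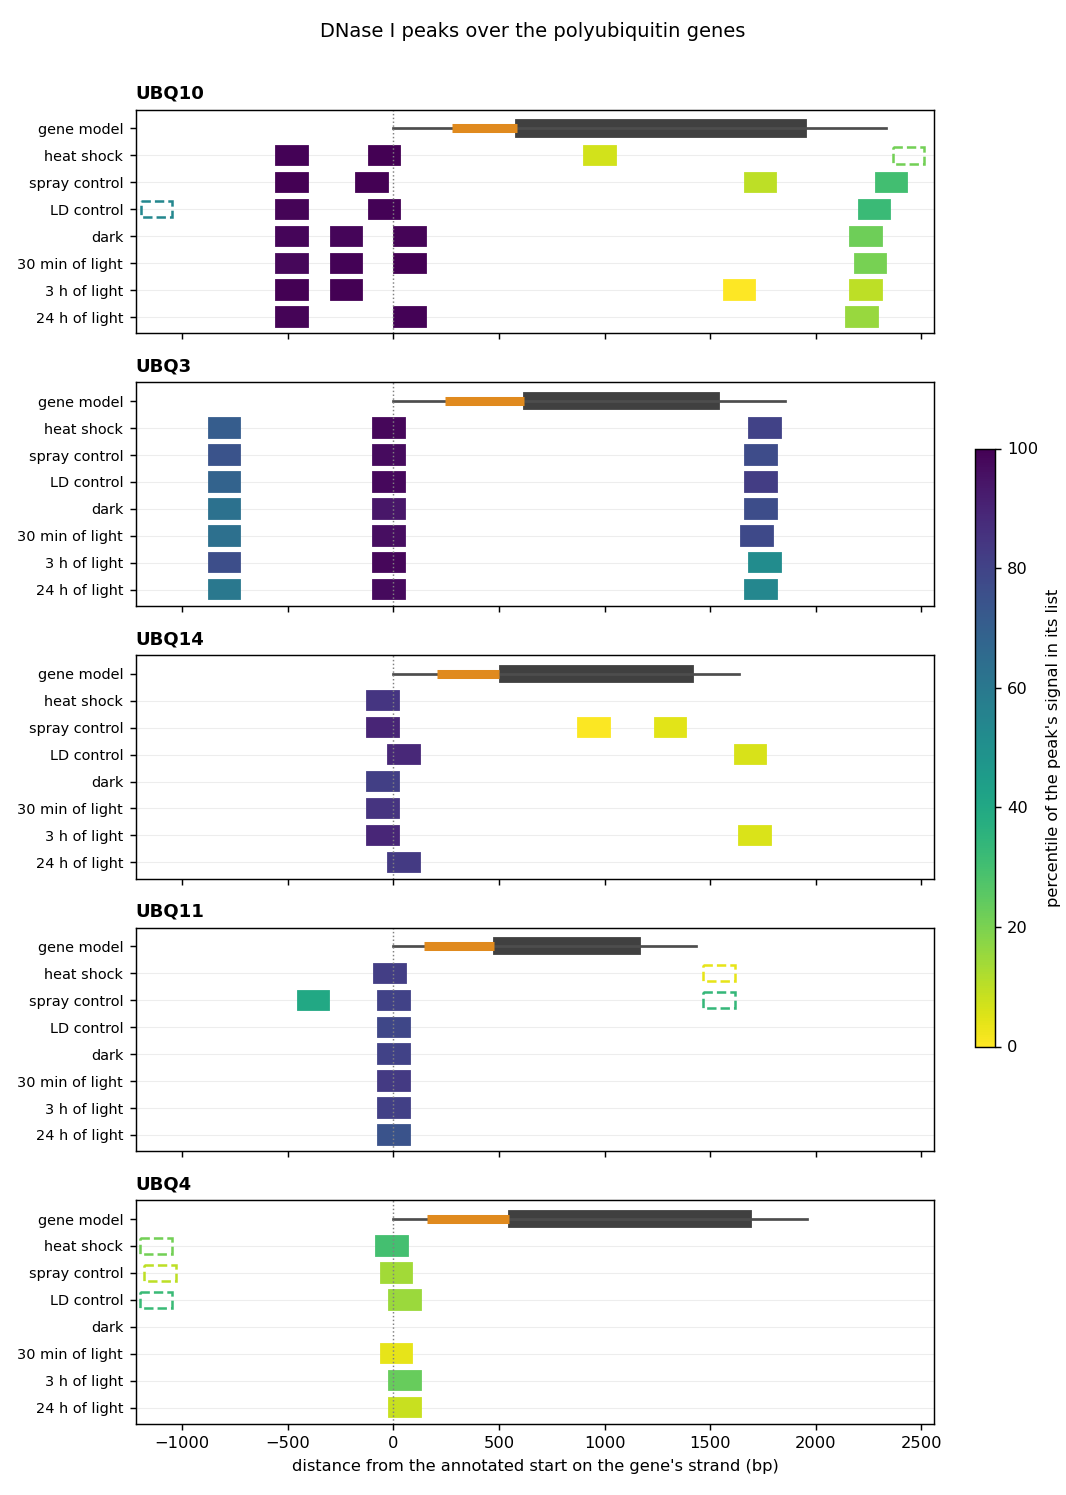
Each filled bar is a 150-bp peak over a polyubiquitin gene or its 1000 bp upstream, placed by distance from the annotated start in bp and coloured by its percentile in its list, with 1 line for each of the 7 lists. Dashed boxes are peaks within 300 bp outside that window, and the gene model shows the longest coding stretch as a thick bar. The orange line marks the longest annotated intron before a coding start. The start peaks recur in every list other than that of the dark for UBQ4, and UBQ10 and UBQ3 also carry peaks at their 3′ ends.

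All 5 genes have an intron of 297 to 385 bp before the coding stretch, a known feature of plant polyubiquitin genes that is used to raise expression from their promoters. The longest annotated form is used, which at UBQ10 ends at 587, while the longest coding stretch starts at 582. No peak was centred in these introns in any list. Within the coding stretch, all 5 peaks over the 7 lists were weak. Heat shock gave 1 at UBQ10, centred at 978 on units 2 and 3 (percentile 6.66), and the spray control gave 1 at 1738 on units 5 and 6 (percentile 9.91). After 3 h of light there was 1 at 1638 on unit 5 of UBQ10, at percentile 0.102. UBQ14 had 2 coding peaks, both in the spray control, at 951 on units 2 and 3 (percentile 0.722) and at 1311 on unit 4 (percentile 4.32). Thus 1 of 5 genes had a coding peak after heat shock, 2 of 5 in the spray control and 1 of 5 after 3 h of light, against 9.37%, 14.5% and 7.49% of all genes with a coding stretch. In the other 4 lists 0 of 5 had one, against 6.33% to 13.2% of all genes.

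UBQ10 and UBQ3 had peaks at the 3′ end as well as at the start. The 3′ peak of UBQ3 lay in the 3′ UTR, centred between 1720 and 1760, in all 7 lists. It stood at percentile 80.3 after heat shock, 77.3 in the spray control and 82.3 in the LD control. It stood at 76.8 in the dark, 77.9 after 30 min, 51.9 after 3 h and 53.7 after 24 h of light, so the 3 h and 24 h lists placed it lower than the other five. The nearest gene on that side, AT5G03230, ends 1096 bp away.

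The 3′ peak of UBQ10 was weaker and less fixed. It was centred at 2358 in the spray control (percentile 30.2) and at 2278 in the LD control (32.4). It was centred at 2238 in the dark (22.2), 2258 after 30 min (20.4), 2238 after 3 h (9.93) and 2218 after 24 h of light (15.6). After heat shock no peak touched the 3′ end, but a peak at percentile 21.1 was centred at 2438, which begins 32 bp past the end of the gene and 10 bp from the LD control peak. It overlapped the spray control peak by 70 bp. It lies between the 3′ ends of UBQ10 and AGD13, which converge with 184 bp between them. Of 21064 genes with no other start within 500 bp of their end, 9.21% had a peak centred within 150 bp of the end after heat shock, 9.36% in the spray control and 11.1% in the LD control, and 6.82% to 8.39% did in the dark and the light lists. By that rule UBQ10 and UBQ3 had an end peak in every list, UBQ10 after heat shock through the peak at 2438. So did UBQ11 after heat shock and in the spray control, and UBQ14 in the LD control and after 3 h of light. UBQ14 had a weak peak just past its end, where it overlaps the convergent gene AT4G02880, at 1691 in the LD control (percentile 5.91) and at 1711 after 3 h of light (percentile 5.58). UBQ11 had a peak 33 bp past its end at percentile 3.54 after heat shock and 33.5 in the spray control.

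Over the 7 lists the peaks of the 5 genes fell into 15 regions, where overlapping peaks count as 1 region. Of these, 7 (46.7%) were in all 7 lists and 4 (26.7%) in 1 list. Over the windows of all genes, 40.3% of 36051 regions were in all 7 lists and 20.3% in 1, so the shares at the polyubiquitin genes were near those of genes in general. The 7 recurring regions were 2 at UBQ10, 3 at UBQ3, 1 at UBQ14 and 1 at UBQ11. The 5 genes together had 9 peaks after heat shock, 13 in the spray control and 10 in the LD control. They had 9 in the dark, 10 after 30 min, 11 after 3 h and 9 after 24 h of light.

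After heat shock each of the 5 genes had a start peak that overlapped the one in the LD control. The midpoint was the same at UBQ10 and UBQ3, at -18 against 2 at UBQ11, at -49 against 51 at UBQ14 and at -6 against 54 at UBQ4. A peak is called gained when it overlaps no peak of the other list, and lost for the reverse. Against the LD control, 1 of the 5 genes gained a peak (background 12.5% of all genes), the coding peak of UBQ10 at 978. Against the LD control, 2 of 5 lost one (background 22.2%), the 3′ peak of UBQ10, whose place beside the heat shock peak is given above, and the peak of UBQ14 past its end. With 5 genes, 1 gene is 20%, so neither count can be read as different from the background. Where an overlap of at least 75 bp is asked for, 2 genes count as gained, UBQ10 by its coding peak and UBQ14 by its start peak.

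Set against the spray control, heat shock again gained the coding peak at UBQ10 in 1 of 5 genes (background 15.2%). Peaks were lost at 3 of 5 genes (background 22.7%), namely the coding peaks of UBQ10 and of UBQ14 and a peak of UBQ11 at -378, at percentile 40.1, which lies on the pseudogene AT4G05053. The same 4 spray control peaks made up the gains of the spray control over the LD control, at 3 of 5 genes (background 16.8%), with 1 of 5 losing a peak (background 18.5%), that of UBQ14 past its end. The losses after heat shock against the spray control are thus peaks that the LD control list did not hold either. The 3 comparisons share their libraries.

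Heat-induced chaperone genes in the same libraries had more peaks over their spans after heat shock. HSP101, a disaggregase that pulls proteins out of aggregates, had 8 peaks over its span after heat shock, against 1 in the spray control and 1 in the LD control. HSP70, a chaperone that binds unfolded proteins, had 5, against 1 and 1. HSP90.1, a chaperone of signalling proteins, had 3, against 0 and 0. The 5 polyubiquitin spans together had 7 peaks after heat shock, against 9 in the spray control and 8 in the LD control. None of the 5 showed more peaks over its span after heat shock than in either control. Over all genes the mean was 0.586 peaks per span after heat shock, against 0.703 in the spray control and 0.705 in the LD control, so the lower count after heat shock was shared by genes in general.

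**Figure D4:**
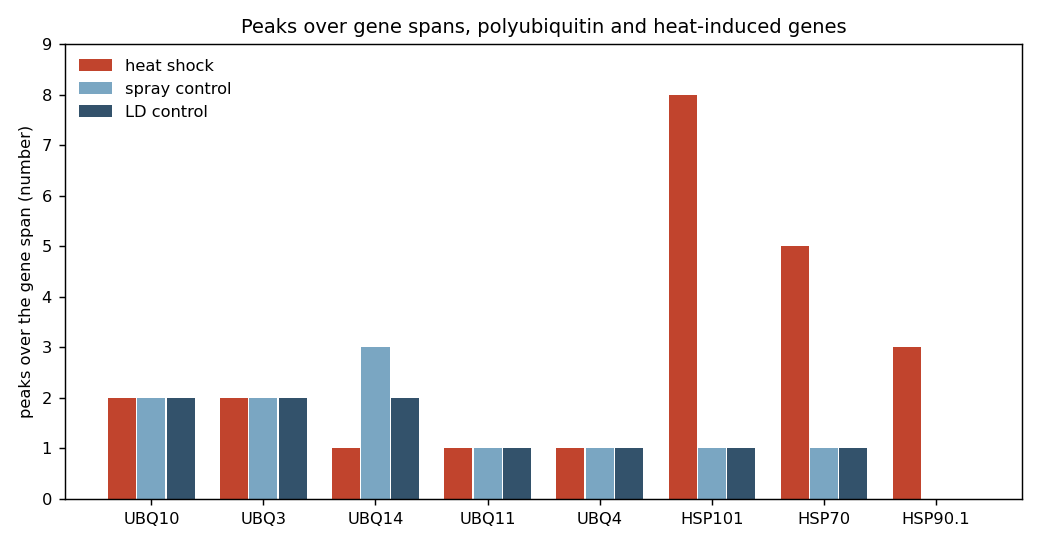
The bars give the number of peaks over the gene span after heat shock, in the spray control and in the LD control, for the 5 polyubiquitin genes and 3 heat-induced genes. After heat shock HSP101 stands at 8, HSP70 at 5 and HSP90.1 at 3, while each polyubiquitin gene stands at 1 or 2. UBQ14 stands at 3 in the spray control.

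In the light series the gene that differed from the dark list at every time was UBQ4. At 30 min of light, 1 of 5 genes, UBQ4, gained a peak over the dark (background 9.52%) and 0 lost one (background 8.26%). The UBQ4 peak then stood at percentile 3.84, with a signal of 62 in a list whose lowest signal is 38. At 3 h of light, 3 of 5 genes gained a peak over the dark (background 17.6%): UBQ4 at its start, UBQ10 in the coding stretch and UBQ14 past its end, all at percentile 23.3 or lower. That UBQ14 peak touches the gene by 1 base, and with midpoints inside the window 2 of 5 genes gained a peak. At 3 h, 1 of 5 lost one (background 8.87%), UBQ10 at 78. At 24 h, 1 of 5 genes, UBQ4, gained a peak over the dark (background 9.93%) and 1 of 5 lost one (background 14.6%), UBQ10 at -222. Both losses at UBQ10 lie within the start stretch described above, where the other peak of the dark list had its partner in the light list. The 3 light comparisons share the dark library.

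Against the LD control, the dark list gained a peak at 1 of 5 genes (background 10.4%), the UBQ10 peak at -222, and lost one at 2 of 5 (background 29.5%), UBQ14 past its end and UBQ4 at its start. After 24 h of light, 0 of 5 genes gained a peak over the LD control (background 10.6%) and 1 of 5, UBQ14, lost one (background 33.1%), again the one past its end. The UBQ4 calls against the dark list rest on a weak peak, at percentile 23.3 or lower in the lists compared. With lists of equal length the UBQ4 gain at 30 min was lost (0 of 5 genes gained), while those at 3 h and at 24 h stayed (1 of 5 each). With the upper 50% of each list by signal, 0 of 5 genes gained a peak over the dark at any time.

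**Figure D5:**
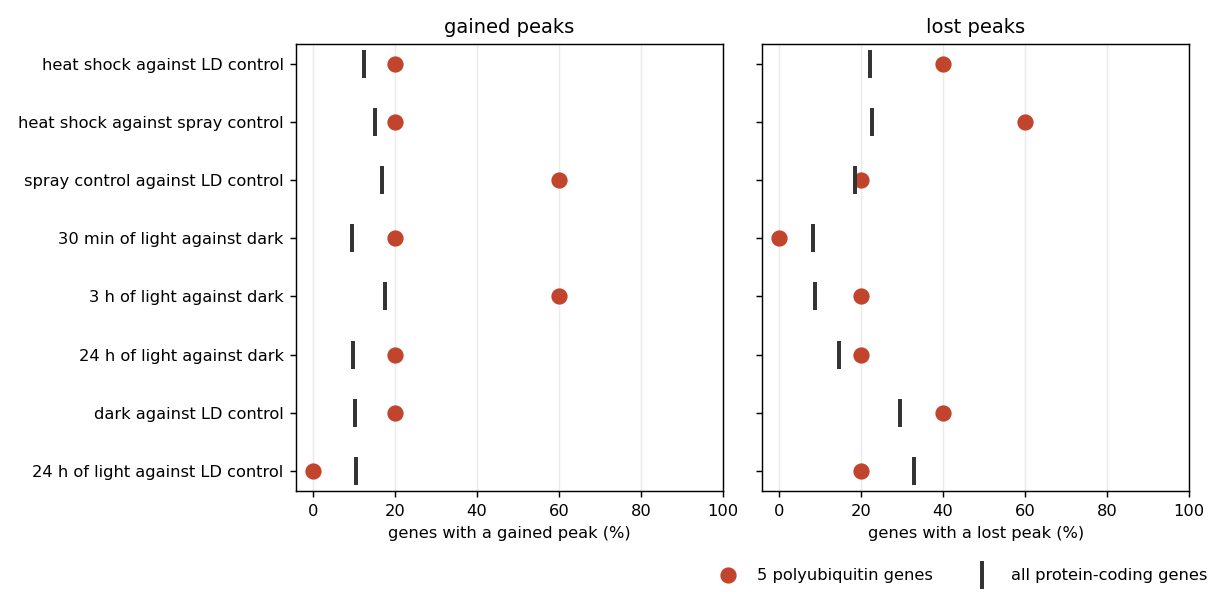
Points give the percent of the 5 polyubiquitin genes with a gained peak (left) or a lost peak (right) in each of 8 comparisons, and ticks give the percent of all protein-coding genes. With 5 genes a point moves in steps of 20%, and the gained counts lie at 0, 1 or 3 genes.

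Known promoter elements were searched on both strands from 250 bp before to 50 bp after the start, with 27443 promoters of the same length as background. No polyubiquitin promoter held the heat shock element with 2 units (GAANNTTC), which 11.6% of all promoters held, and none held the heat shock element with 3 units, which 0.481% held. The G-box (CACGTG, background 7.68%), the telo-box (AAACCCTA, background 6.22%) and the W-box (TTGACC or TTGACT, background 32.4%) were also in none of the 5. The I-box (GATAA) was in 4 of 5, against 60.8% of all promoters, and the TATA box (TATAAA) in 4 of 5, against 52.1%. Of the TATA box matches, those of UBQ11 at -30, on the opposite strand, and at 43 lay within 50 bp of the start, and the others did not. UBQ4 was the 1 gene with the site II element (TGGGCC, background 15.5%), with 3 matches beginning at -19, -11 and -2. A match is a description of letters, and no match says only that these letters are not in this window.

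The genes of ubiquitin fused to a ribosomal protein are the other source of free ubiquitin, and all 5 of them had a start peak in all 7 lists. Its percentile ran from 75.1 to 91.8 at UBQ1, from 13.6 to 48.1 at UBQ2, from 74.3 to 85 at UBQ5, from 55.8 to 77 at UBQ6 and from 43.1 to 82.7 at AT1G23410. UBQ10 and UBQ3 stood above all of these in each list, and UBQ4 stood below all of them in each list that held its start peak. The percentile ranges of UBQ14 and UBQ11 overlapped those of UBQ1, UBQ5 and AT1G23410, and that of UBQ11 also overlapped that of UBQ6. Against the LD control, heat shock gained a peak at 0 of the 5 fusion genes (background 12.5%) and lost one at 2, UBQ1 and UBQ5 (background 22.2%). ACT2, whose promoter drives the biotin ligase of the line, had its start peak at percentiles from 96.5 to 99.8, and like UBQ10 it is a gene whose promoter is present in the transgene too.

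Of 6 related genes of ubiquitin-like repeats, UBQ9 and UBQ13 had no peak in any list and UBQ7 had 1 in every list. RUB1, which encodes a ubiquitin-like modifier of cullins joined to ubiquitin, had 2 peaks in the LD control and 1 in each other list. UBQ12 had 1 peak in the spray control, the LD control and after 3 h of light and none elsewhere, and UBQ8 had 1 in each list other than those of heat shock and 3 h of light. After heat shock, 0 of these 6 gained a peak against the LD control (background 12.5%) and 3 lost one (background 22.2%).

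Of 11 conjugating enzyme genes, 3 gained a peak after heat shock against the LD control (background 12.5%) and 3 lost one (background 22.2%). UBC1 had 1 peak after heat shock, against 2 in the spray control and 3 in the LD control, and UBC10 had 1, against 4 and 2, while UBC36 had 1 in each of these lists, the heat shock peak overlapping that of the spray control and not that of the LD control. Of 9 deubiquitinating enzyme genes, 1 gained and 1 lost a peak in the same comparison. UBP6, a deubiquitinating enzyme that acts at the proteasome, had 3 peaks after heat shock, against 3 in the spray control and 2 in the LD control, UCH2 had 0, against 0 and 1, and UBP13 had 1, against 1 and 1. Of the 2 activating enzyme genes, which carry out the first step of ubiquitin transfer, neither changed after heat shock against the LD control. UBA1 had 1 peak after heat shock, against 2 in the spray control and 1 in the LD control, and UBA2 had 2 in each of these lists. At 3 h of light against the dark, 2 conjugating enzyme genes, 2 deubiquitinating enzyme genes and 1 activating enzyme gene gained a peak (background 17.6%), and 0 genes of these lists lost one (background 8.87%). Counts of this size in short lists cannot be read as different from the background.

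The genes whose numbers of peaks over the 7 lists were closest to those of each polyubiquitin gene were found over all 27444 genes, with ties settled by the mean difference in the percentile of the strongest peak. UBQ10 had 1 gene with the same 7 numbers, TCP14, a transcription factor gene (mean difference 5.65 percentiles), followed by TPS8 and AT3G60200, which differed by 1 peak in all. UBQ3 shared its 7 numbers with 136 genes, of which AT1G15800, AT5G66820 and AT1G01830 were nearest, at 1.07 to 1.14 percentiles. UBQ14 shared its numbers with 11 genes, the nearest of them AT4G02580, AT5G44574 and AT1G55675, at 4.89 to 6.87 percentiles. UBQ11 shared its numbers with 525 genes, the nearest being AT5G58800, AT3G26910 and EIF3G1, at 2.9 to 3.68 percentiles. UBQ4 shared its numbers, with the gap in the dark, with 149 genes, the nearest being AT5G17570, AT2G17680 and AT3G55580, at 2.48 to 2.84 percentiles.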

How the data were processed

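DNase I-seq of 14 samples was analysed. The labels list every library under 2 samples, 1 single-end and 1 paired-end, with identical peak files, which leaves 7 libraries and no p-values or errors between conditions. Per the labels' protocols, biotin-captured nuclei got 45 units of DNase I (3 min, 25 °C), and the small fragments were sequenced. Bowtie 0.12.7, CASAVA 1.8.2 and TAIR10 are named in the submitters' processing notes. The peak calling method and cutoff are not given in the labels or files. The deposited signal column, a whole number per peak made by the authors, has no normalization stated and was used only to rank peaks within a list. The −log10 p-value column deposited by the authors reaches 324 in every list and was not used for ranking. Some samples of the series were subsampled to equal depth, and the labels do not mark which.

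Genes, coordinates (counted from 1) and sequence came from RefSeq TAIR10.1. After all LD control peaks were moved by 5000 bp, 28.3% had a midpoint in a promoter window (1000 bp upstream to 200 bp downstream of a start), against 57.6% before. A peak counted for a gene with an overlap of at least 1 bp, and a start peak is the one centred nearest to the start, within 250 bp of it. The 474 organelle peaks of the spray control were left out. Wilson intervals (95%) on shares of short sequences treat overlapping sequences of 1 fixed genome as independent, so they measure no sampling error. Code was tested on simulated peaks and sequences with Python 3.11.15, numpy 2.4.6, pandas 2.3.3 and matplotlib 3.10.9.

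The genes and gene lists were chosen with earlier results of these data known. Named by rule were the 5 genes, the ribosomal fusions, up to 3 genes per enzyme or related list with the most gained or lost peaks, ACT2, 3 heat-induced genes and the 3 most alike genes per member. UBQ7, UBQ9 and UBQ13 were named after their values were seen, and so were the peaks within 300 bp outside the windows and the shared stretches. Epidermis, guard cell and phloem markers were counted too: in the 7 lists 2 of 2, 1 or 2 of 2 and 1 of 2 had a peak over the gene or its upstream window. In the promoter window alone, 1 of 2 epidermis markers had a peak in every list other than that of the LD control, where 2 had one. Other settings tried were the upper 50% of each list by signal, lists of equal length, other windows, other overlap rules, 50-base sequences and a wider motif window.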

Additional observations from a re-analysis of the deposited data

How the results depend on the processing

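No paired analysis was possible because each condition has 1 library, and no library could be left out in turn for the same reason. With the upper 50% of each list by signal, the 5 genes had 7 peaks in the spray control and 7 after 3 h of light, and with the promoter window alone they had 8 and 7. The other totals moved by at most 1.5 times under each setting (in the dark, 6 over gene spans alone). With the upper 50%, the genes with a gained peak fell to 0 in the 6 comparisons other than those of dark and 24 h of light with the LD control, and the genes with a lost peak to 0 in 5 (heat shock against both controls, and spray control, dark and 24 h of light against the LD control). With lists of equal length, gained genes became 1 for spray control against LD control, 1 for 3 h and 0 for 30 min of light against dark and 1 for 24 h of light against LD control. Lost genes then became 1 for heat shock against either control and 0 for spray control, dark and 24 h of light against the LD control. In the promoter window alone, gained genes became 0 for heat shock against either control, 1 for spray control against LD control and 1 for 3 h of light, and lost genes 0, 1 or 0 in the heat shock and spray control comparisons, 1 for dark and 0 for 24 h against the LD control. An overlap of at least 75 bp made 4 gained counts (heat shock, dark and 24 h of light against LD control, 24 h against dark) 2, 2, 1 and 2, and 3 lost counts (spray control and 24 h against LD control, 24 h against dark) 2 each. With midpoints inside the window, lost counts against the LD control became 1 for heat shock, 0 for spray control, 1 for dark and 0 for 24 h. Over gene spans alone, or where peaks within 150 bp count as shared, the UBQ10 start peak was no longer gained in the dark against the LD control (0) nor lost at 24 h against the dark (0), and the second rule left 1 lost gene after heat shock against the LD control, as did LD control peaks also in the spray control (1). Leaving out peaks nearer to another gene's start, a setting chosen after seeing the data, moved none of these counts by 1.5 times. With 50 bases, unique shares in coding stretches ran from 76.9% (UBQ11) to 97.6% (UBQ4), and the wider motif window added a G-box at UBQ10, a W-box at UBQ3 and an I-box at UBQ4 (5 of 5 genes, against 83.8% of all promoters). Counts of 0 to 3 genes in single libraries move with the threshold, which is unknown. The start peaks of UBQ10, UBQ3, UBQ14 and UBQ11 stood at percentile 74.3 or higher in every list, and those of UBQ4 between 3.84 and 29.7.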
